A study of Mus musculus with 8 samples.

Results

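AP-1 is a dimeric transcription factor built from basic leucine zipper (bZIP) proteins, and its subunit genes were followed here in cultured mouse peritoneal macrophages, which are phagocytic cells washed from the abdominal cavity. The genes were taken by name from the deposited table and not for their values: Jun, Junb and Jund, Fos, Fosb, Fosl1 and Fosl2, and the related bZIP genes Atf3, Maff and Batf. All 10 were listed, out of 24339 genes. The cells came from C57BL/6 mice, either wild type or α7nAChR-/-, the latter without the α7 subunit gene Chrna7 of the nicotinic acetylcholine receptor. Each genotype was given vehicle, nicotine (10 µM), lipopolysaccharide (LPS, 100 ng/ml) or both, with nicotine or its vehicle added 15 min before 4 h with LPS or its vehicle. Each of these 8 groups was 1 library, without a replicate. The labels name neither the allele nor the animals or cell preparations behind each library, and a difference of genotype cannot be told apart from one of preparation.

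Jun proteins form dimers with each other or with Fos proteins, whereas Fos proteins need a partner, and the dimer binds short DNA sites in promoters and enhancers. Mitogen-activated protein kinases, which Toll-like receptor 4 switches on when it meets LPS, act on AP-1 both by phosphorylating its subunits and by inducing their genes. ATF3 is a stress-induced bZIP factor that restrains cytokine genes in mouse macrophages. MAFF is a small Maf protein with no activation domain of its own, and BATF pairs with Jun proteins and with interferon regulatory factors at composite sites.

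Values were FPKM, which scale fragments to transcript length and sequencing depth, so that levels can be compared between genes. Chrna7 was listed at 0 FPKM in all 8 libraries, and so did not check the genotype labels. A low value in the table can be a failed estimate, since the glycolytic gene Gapdh was listed at 1.34 to 8.90 FPKM. All 10 macrophage markers were detected, with a summed level of 20531 to 34878 FPKM led by Lyz2. As Lyz2 alone stood at 17576 to 32448 FPKM, the sum says little of the other markers. Adgre1 varied little between libraries, at 289 to 421 FPKM. Gata6 (0.814 to 15.7), Fcgr1 (1.39 to 219) and Timd4 (20.3 to 222 FPKM) varied widely. Of other cell types, T cell markers summed to 3.07 to 10.1 FPKM (5 of 6 listed) and B cell markers to 161 to 352 FPKM (5 of 6). Dendritic cell markers summed to 2.56 to 48.8 FPKM (5 of 5) and neutrophil markers to 22.9 to 163 FPKM (4 of 5). Of the neutrophil markers only 1, S100a8, reached a mean of 1 FPKM. It stood at 22.8 to 162 FPKM, higher in the knockout than in the wild type library of each treatment. Mast cell markers, 6 of 6 detected, summed to 157 and 207 FPKM with vehicle, 207 and 281 with LPS, 299 and 392 with nicotine, and 572 and 751 with both (knockout and wild type). In bulk RNA, a change in the number of cells of a type and a change in RNA per cell cannot be told apart. The wild type library given nicotine and LPS stood apart in fibroblast and mesothelial markers, at 18.4 FPKM against 0.907 to 2.56 in the others. The fitted changes that use it are also given without it, which leaves the knockout library alone for that treatment.

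Together the 10 genes rose from 318 and 254 FPKM (wild type and knockout) with vehicle to 873 and 623 with nicotine, 1271 and 1233 with LPS, and 1432 and 1244 with both. Summed levels with LPS were therefore similar in FPKM with and without nicotine, but their make-up was not. The FPKM of all genes together were not level between libraries. They summed to 413052 and 442307 with vehicle, 529093 and 523764 with nicotine, 795630 and 854016 with LPS, and 657052 and 627160 with both. As a share of that total, the members rose less from vehicle, and stood higher with both agents than with LPS alone. Junb and Atf3 supplied 68.3% to 75.8% of the sum in every library. Within the Jun genes, Junb made up 90.8% and 86.6% of the FPKM with LPS, but 37.8% and 46.6% with nicotine, where Jun was high. Fosl2 made up 80.2% and 82.8% of the 4 Fos genes with LPS, and 42.9% and 49.3% with nicotine and LPS.

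**Figure D1:**
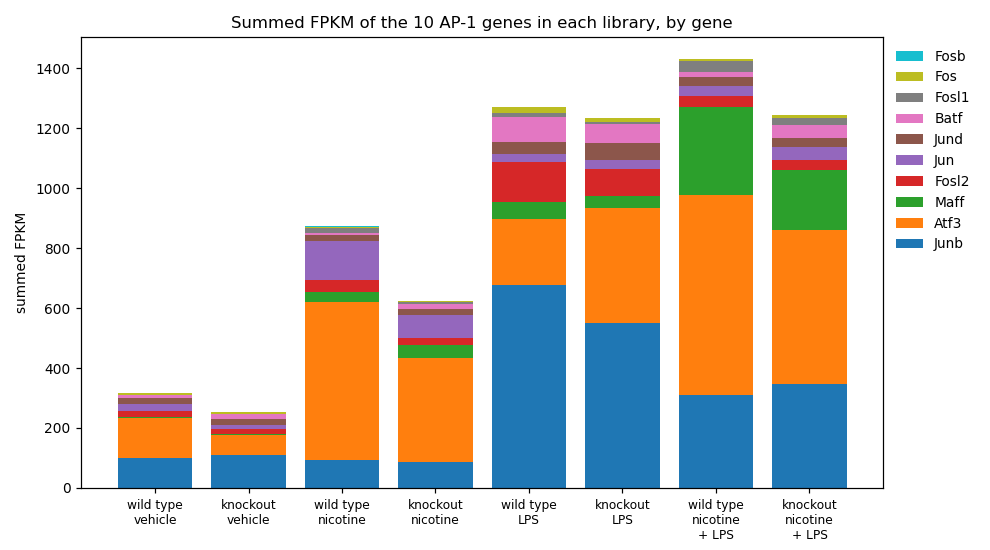
Stacked bars of summed FPKM (linear axis from 0) of the 10 AP-1 genes in each of the 8 libraries, 1 library per bar, coloured by gene. The LPS bars reach 1271 and 1233 FPKM, with Junb the largest segment, and the bars for nicotine with LPS reach 1432 and 1244 FPKM, where Atf3 and Maff are larger and Junb and Fosl2 smaller.

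Differences were tested with limma on log2(FPKM + 1), a scale that understates changes of low genes. The wild type and the knockout library of a treatment stood as its 2 libraries, with genotype as a further term. The error of a gene comes from the disagreement between the genotypes pooled over all treatments. limma also draws it towards a trend over all genes (3.53 prior against 3 residual degrees of freedom). A gene thus has the same standard error (SE) for nicotine with and without LPS, however well the genotypes agree on either change. For Batf it was 0.37 in both. The test covered the 10447 genes whose mean reached 1 FPKM, 9 of the 10 members among them. Fosb, with a mean of 0.587 FPKM, was not tested.

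Jun, the founding member (chromosome 4, 95049034 to 95052222, minus strand, coordinates in GRCm38), was listed at 23.5 and 12.5 FPKM with vehicle in wild type and knockout cells. Nicotine alone took it to 129 and 76.7 FPKM, LPS alone to 27.6 and 30.3, and both together to 35.7 and 42.6. Jun was thus highest in the libraries given nicotine without LPS, and both of these stood above the other 6. The log2 change with nicotine was 2.47 ± 0.30 without LPS (SE, limma adjusted p = 0.00107) and 0.42 ± 0.30 with LPS (limma adjusted p = 0.275). These effects differed by -2.05 ± 0.43 (interaction, limma adjusted p = 0.0166), a call that ended without the wild type nicotine library (adjusted p = 0.0673) or the wild type library given both (adjusted p = 0.0686).

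Junb, which encodes a Jun protein of weaker transforming activity than JUN (chromosome 8, 84974484 to 84978718, minus strand), stood at 98.3 and 108.8 FPKM with vehicle and at 91.6 and 85.0 FPKM with nicotine. LPS raised it to 679 and 550.1 FPKM, a log2 change of 2.55 ± 0.16 (limma adjusted p = 9.64e-05). With nicotine before LPS it reached 310 and 347 FPKM, above vehicle but below both LPS libraries, a log2 change from LPS alone of -0.90 ± 0.16 (limma adjusted p = 0.00373). Exons of Prdx2, at 53.7 to 165 FPKM, overlap Junb on the opposite strand, and the library kit does not mark strand. Reads of the overlap cannot be told apart.

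Jund, the most evenly expressed Jun gene (chromosome 8, 70698949 to 70700616, plus strand), held at 20.7 to 22.1 FPKM in the 4 libraries without LPS. It was listed at 41.1 and 55.1 FPKM with LPS and at 28.7 and 30.5 FPKM with both, so the 3 levels did not overlap. LPS raised it by 1.12 ± 0.16 (log2, limma adjusted p = 0.00155), and nicotine lowered it under LPS (log2 change -0.67 ± 0.16, limma adjusted p = 0.0133). The fall lost its call without the wild type library given both (adjusted p = 0.0784), the knockout LPS library (0.053) or the knockout library given both (0.0783). Antisense genes are annotated over both Jund and Jun, and their reads cannot be told apart from those of the coding genes.

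Fos, the classic immediate early gene (chromosome 12, 85473890 to 85477273, plus strand), was low after 4 h, at 8.75 and 7.90 FPKM with vehicle. It was 6.07 and 3.36 FPKM with nicotine, 20.4 and 13.4 FPKM with LPS, and 6.96 and 8.09 FPKM with both. Both LPS libraries were the highest, while the libraries with vehicle and with both treatments overlapped. LPS raised Fos by 0.91 ± 0.23 (log2, limma adjusted p = 0.0147). Nicotine lowered it without LPS (-0.75 ± 0.23, limma adjusted p = 0.0327) and with LPS (-1.04 ± 0.23, limma adjusted p = 0.00946). Each of these 3 calls ended when some single library was left out, with the values given for each comparison.

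Fosl2, encoding FRA-2 (chromosome 5, 32135801 to 32157842, plus strand), was the most abundant Fos gene in every library but the wild type one given both agents, where Fosl1 was higher. It stood at 20.8 and 18.2 FPKM with vehicle, 39.4 and 25.4 with nicotine, 131 and 92.0 with LPS, and 34.1 and 33.7 with both. Nicotine thus went with a higher level in resting cells and a lower level in LPS-treated cells, in both genotypes. The log2 change with nicotine was 0.67 ± 0.18 without LPS (limma adjusted p = 0.0187) and -1.67 ± 0.18 with LPS (limma adjusted p = 0.000654). The difference between these effects was -2.34 ± 0.25 (limma adjusted p = 0.00422) and held its call without any single library, at -2.55 to -2.13.

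Fosl1, encoding FRA-1, which lacks the activation domain of FOS (chromosome 19, 5447547 to 5455946, plus strand), was nearly absent with vehicle, at 0.0647 and 0.491 FPKM. It rose to 13.5 and 6.16 FPKM with nicotine, to 11.9 and 5.69 FPKM with LPS, and to 36.8 and 25.4 FPKM with both. Libraries given both agents were above those given either, and those were above vehicle, with no overlap. The log2 change was 3.02 ± 0.36 with nicotine alone (limma adjusted p = 0.000953), 2.88 ± 0.36 with LPS alone (limma adjusted p = 0.000818) and 1.76 ± 0.36 with nicotine on top of LPS (limma adjusted p = 0.00634). With a pseudocount of 0.1 the last of these lost its call (1.88, adjusted p = 0.0562). Exons of Ccdc85b, at 0.759 to 2.70 FPKM, overlap Fosl1 on the opposite strand.

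Fosb, the remaining Fos gene (chromosome 7, 19302696 to 19310051, minus strand), was seen almost only with nicotine. It was listed at 0.0216 and 0.0185 FPKM with vehicle and 0.0532 and 0.0804 with LPS, but at 1.24 and 0.325 FPKM with nicotine and 1.77 and 1.20 with both. Allowing for the value of 1 fragment in each library, the knockout vehicle, wild type LPS and knockout LPS values were close to 1, 2 and 3 times the wild type vehicle value. If that value is 1 fragment, the 4 libraries without nicotine hold 1 to 3 fragments each and those with nicotine about 20 to 76. With no filter on low values, the log2 change with nicotine was 0.75 ± 0.21 without LPS (limma adjusted p = 0.04) and 1.21 ± 0.21 with LPS (limma adjusted p = 0.0104), and that with LPS alone was 0.06 ± 0.21 (limma adjusted p = 0.877).

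Atf3 (chromosome 1, 191170296 to 191218039, minus strand) was the most abundant member with nicotine. It was listed at 135.5 and 66.7 FPKM with vehicle, 527 and 348 with nicotine, 219.6 and 385 with LPS, and 669 and 515 with both. All 4 nicotine libraries were above both vehicle libraries, but the knockout LPS library was above the knockout library given nicotine alone. The log2 change was 2.16 ± 0.39 with nicotine alone (limma adjusted p = 0.00429) and 1.60 ± 0.39 with LPS alone (limma adjusted p = 0.0122). Nicotine on top of LPS gave 1.01 ± 0.39, which did not pass (limma adjusted p = 0.0655), with ratios of 3.04 in wild type and 1.34 in knockout cells.

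Maff (chromosome 15, 79346621 to 79359076, plus strand) had the widest range of the tested members after Fosl1. It went from 1.96 and 4.21 FPKM with vehicle to 36.0 and 42.3 with nicotine, 57.3 and 37.9 with LPS, and 294 and 199 with both. Libraries with both agents were far above the rest, and those with either agent overlapped. Its log2 change was 3.35 ± 0.35 with nicotine alone (limma adjusted p = 0.000634), 3.60 ± 0.35 with LPS alone (limma adjusted p = 0.000338) and 2.35 ± 0.35 with nicotine on top of LPS (limma adjusted p = 0.0019). Summed mast cell markers, given above, were also highest in the 2 libraries with both agents, and their part in the levels of Maff and Fosl1 was not tested.

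Batf (chromosome 12, 85686669 to 85709087, plus strand) was listed at 7.69 and 13.6 FPKM with vehicle and at 6.98 and 15.1 FPKM with nicotine. LPS raised it to 83.7 and 64.0 FPKM (log2 change 2.72 ± 0.37, limma adjusted p = 0.0012). With nicotine before LPS it was 16.1 FPKM in wild type and 40.8 FPKM in knockout cells, both below LPS alone (-1.47 ± 0.37, limma adjusted p = 0.0151). That fall was 5.20-fold in wild type and 1.57-fold in knockout cells, and it lost its call without the wild type library given both (-1.06, adjusted p = 0.124). B cell markers, which mark a cell type that also uses Batf, summed to lower values with LPS than with both, at 207 and 269 FPKM with LPS and 293 and 352 with both.

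**Figure D2:**
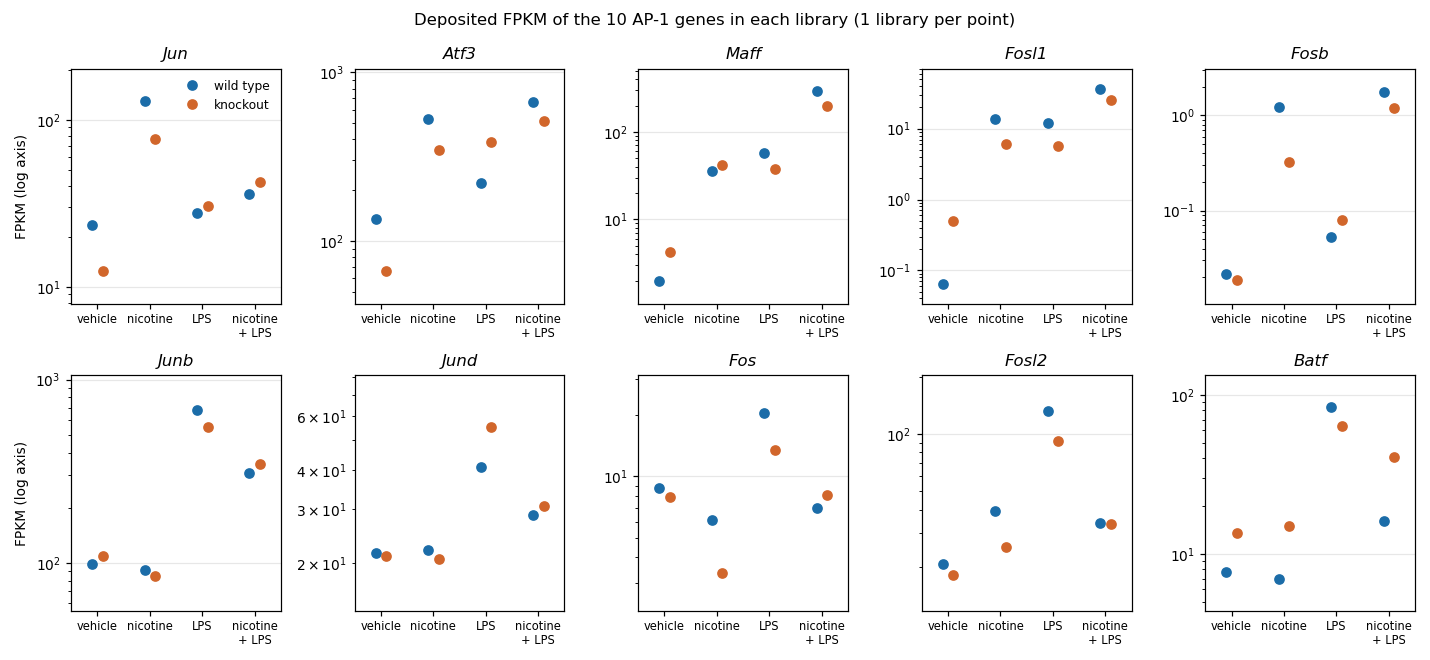
FPKM (log axis) of each AP-1 gene by treatment, with 1 point per library, blue for wild type and orange for knockout. Jun, Atf3, Maff, Fosl1 and Fosb (top) are higher with nicotine alone than with vehicle in both genotypes, and Junb, Jund, Fos, Fosl2 and Batf (bottom) are highest with LPS alone.

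Promoters of 9 members were in the RefSeq table for GRCm38.p6, which gives 250 bases before and 50 after each transcript start, with 3 starts for Maff. They were searched on both strands for sites that bZIP factors and NF-kB bind. The TPA response element TGAGTCA, the main AP-1 site, was in none of the 9 and in 5.20% of all 32851 promoters. The cAMP response element TGACGTCA was in 1 of 9 (Maff) and in 1.79% of all promoters. The ATF4-C/EBP composite site TGATGCAA was in 1 of 9 (Atf3) and in 0.895% of all. The CArG box was in none of these windows and in 1.63% of all, and the NF-kB site in 4 of 9 (Fos, Fosb, Fosl2 and Maff) and in 8.46% of all. Sites more than 250 bases upstream of a start were not searched, so a count of none does not mean that a gene lacks the site. A member counts if any of its starts matched, whereas the shares of all are per promoter. Upstream bases were 58.4% (Fos), 68.8% (Fosb), 64.4% (Fosl2) and 60.4% (the matching Maff start) G or C, against a median of 52.4% over all promoters. Without a match, Jun (61.2%), Junb (66.4%) and Atf3 (65.2%) were above that median, and Jund (47.6%) and Batf (46.4%) below. The part of base content in these matches was not tested. The matches in Atf3 and Maff, which nicotine raised, and the NF-kB matches outside annotated exons are printed here 5′ to 3′ on the gene's strand, with the match in capitals and up to 15 bases on either side. The composite site of Atf3 reads on the reverse strand and starts 110 bases upstream of the start, and the site of Maff lies 29 bases upstream of the middle one of its starts.
Atf3 composite site, chr1:191183421-191183458, minus strand: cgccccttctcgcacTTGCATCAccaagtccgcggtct
Maff cAMP response element, chr15:79347476-79347513, plus strand: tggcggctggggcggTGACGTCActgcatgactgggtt
Maff NF-kB site, most downstream start, chr15:79348317-79348356, plus strand: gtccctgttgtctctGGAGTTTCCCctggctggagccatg
Fos NF-kB site, chr12:85473661-85473700, plus strand: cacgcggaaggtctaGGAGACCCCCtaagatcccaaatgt
Fosb NF-kB site, chr7:19310209-19310248, minus strand: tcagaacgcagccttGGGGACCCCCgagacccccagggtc
A match describes these letters only, and says nothing of whether a factor was bound.

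LPS without nicotine raised most AP-1 genes. Of the 9 tested members 8 rose, and Jun (0.72 ± 0.30, limma adjusted p = 0.0784) did not pass. Maff (12.1-fold), Fosl1 (7.37-fold), Batf (6.60-fold), Junb (5.86-fold) and Fosl2 (5.41-fold) rose most on this scale, and Atf3 (3.03-fold), Jund (2.17-fold) and Fos (1.88-fold) least. All 10 members were higher with LPS than with vehicle in both genotypes, and the share of all genes that were so was not counted. Over all genes tested, 32.7% were called higher and 26.4% lower, and the members' median log2 change was 2.44 against 0.08 for all. With quantile scaling that median for all genes turned to -0.07 and higher genes made up 45.2% of all calls instead of 55.4%. The call of Atf3 then ended (0.52, adjusted p = 0.287), and it also ended without the knockout vehicle library (1.12, adjusted p = 0.0824). Fos lost its call without the wild type vehicle (adjusted p = 0.1) or LPS library (adjusted p = 0.0795), and Jun gained one without the former (1.09, adjusted p = 0.0488).

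Nicotine without LPS split the members. Maff (10.2-fold), Fosl1 (8.09-fold), Jun (5.54-fold), Atf3 (4.47-fold) and Fosl2 (1.59-fold) rose, and Fos fell. Junb (-0.23 ± 0.16, limma adjusted p = 0.258), Jund (-0.0011 ± 0.16, limma adjusted p = 0.997) and Batf (0.01 ± 0.37, limma adjusted p = 0.983) did not pass. Of 9 tested members 5 were thus higher and 1 lower, against 30.1% and 26% of all genes tested. Without LPS, 6 of the 10 members were higher with nicotine in both genotypes and 2 lower, and Jund and Batf went opposite ways by small amounts. Agreement between genotypes was not counted over all genes. The call of Fosl2 ended with quantile scaling (0.39, adjusted p = 0.117), with treatment as the only term (adjusted p = 0.0741), or without the wild type vehicle, wild type nicotine or knockout vehicle library (adjusted p = 0.119, 0.141 and 0.0522). That of Fos ended with no filter on low values (adjusted p = 0.0699), with treatment as the only term (adjusted p = 0.0729), or without the wild type vehicle, knockout vehicle or knockout nicotine library (adjusted p = 0.0876, 0.169 and 0.218), and Junb gained a call downwards with quantile scaling (-0.74, adjusted p = 0.00999).

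Nicotine before LPS, compared with LPS alone, lowered more members than it raised. Fosl2 fell most, to 0.315 of its level on this scale, followed by Batf (0.36), Fos (0.485), Junb (0.538) and Jund (0.630), whereas Maff (5.10-fold) and Fosl1 (3.40-fold) rose. That made 2 of 9 higher and 5 lower, against 26.9% higher and 28.6% lower of all genes tested. Each of the 10 members moved the same way in both genotypes, 5 up and 5 down, although for Jun (0.42) and Atf3 (1.01) the average change did not pass. How many of all genes moved the same way in both was not counted. This comparison and that of LPS with vehicle share the LPS libraries, so a library high in a gene moves both. Without the wild type library given both agents, Fos (-0.71, adjusted p = 0.0765), Batf and Jund lost their calls, and 2 members were lower, against 17.4% of all genes higher and 18% lower. Fosl2 (-1.46, adjusted p = 0.00964), Junb (-0.77, adjusted p = 0.0423), Maff (1.996, adjusted p = 0.0225) and Fosl1 (1.75, adjusted p = 0.0484) then still passed. Atf3 gained a call with quantile scaling (1.26, adjusted p = 0.0312) or without the knockout LPS (1.74, adjusted p = 0.00199), wild type vehicle (adjusted p = 0.0496) or knockout vehicle library (adjusted p = 0.0491), Batf lost it with treatment as the only term (adjusted p = 0.058), and Fos without the wild type LPS library (adjusted p = 0.052).

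**Figure D3:**
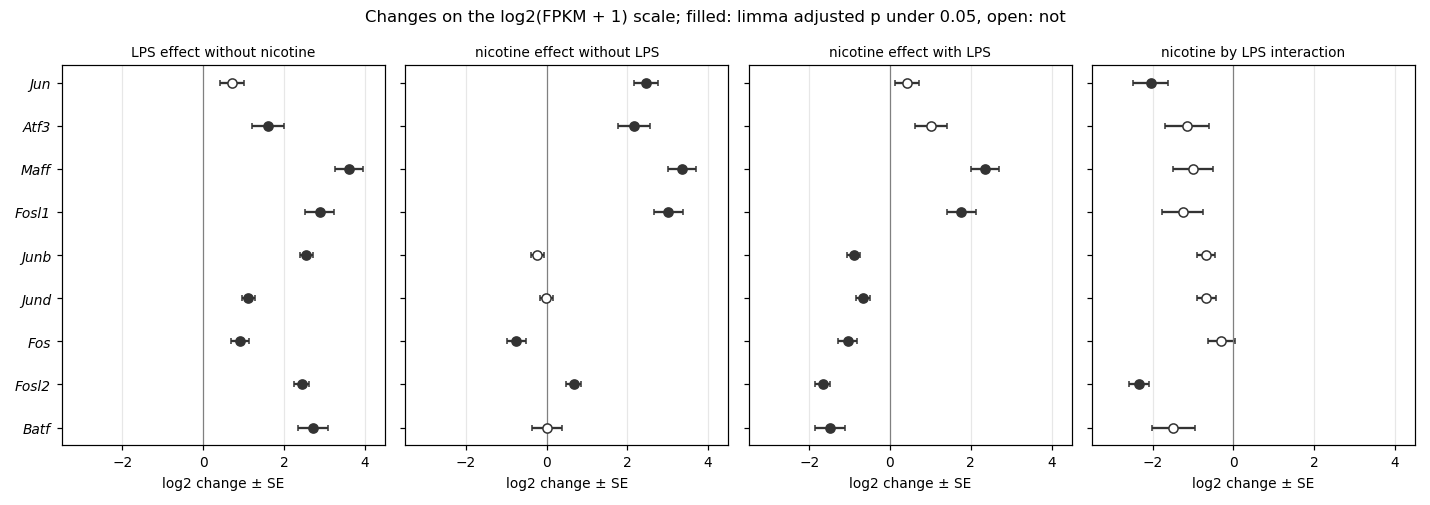
Log2 change with its SE for each of the 9 tested members (rows) in the 4 comparisons (panels) on the log2(FPKM + 1) scale, filled where the limma adjusted p is under 0.05. With nicotine and no LPS 5 members are filled on the right, and with nicotine and LPS 5 are filled on the left.

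Whether nicotine acted differently with and without LPS was asked by the interaction. Its point estimate was below 0 for all 9 tested members, with a median of -1.15 against -0.11 for all genes. Fosb, not among them, went the other way in the fit with no filter on low values (0.45 ± 0.29, limma adjusted p = 0.343). Fosl2 (-2.34) and Jun (-2.05) passed, that is 2 of 9 lower and 0 higher with limma, against 17.3% lower and 12.8% higher of all genes tested, and 6 of 9 had an unadjusted p under 0.05. Batf (-1.48 ± 0.53, limma adjusted p = 0.0747), Fosl1 (-1.25 ± 0.50, 0.103), Atf3 (-1.15 ± 0.55, 0.157), Maff (-1.0013 ± 0.4889, 0.162), Junb (-0.67 ± 0.22, 0.0631), Jund (-0.66 ± 0.23, 0.07) and Fos (-0.30 ± 0.33, 0.518) did not. With quantile scaling the all-gene median moved to -0.01 and higher genes made up 55.4% of all calls instead of 42.4%, and Junb turned to 0.25. Leaving out 1 library gave between 1 and 4 members lower. It was 1 without the wild type nicotine library or the wild type library given both, and 4 without the LPS library of either genotype or the knockout vehicle library.

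Knockout and wild type cells did not differ in any tested member on average over the 4 treatments by limma's adjusted p. No member passed, against 4.76% of all genes called higher and 2.88% lower in the knockout, and 2 had an unadjusted p under 0.05, Batf (0.67 ± 0.26, limma adjusted p = 0.172) and Fosl2 (-0.33 ± 0.13, limma adjusted p = 0.166). Batf was higher in the knockout library with vehicle (1.76-fold), nicotine (2.16-fold) and both (2.54-fold), and lower with LPS, at 0.765 of wild type. Atf3 showed the mirror image, at 0.492, 0.661 and 0.77 of wild type in those 3 treatments and 1.75-fold higher with LPS. Leaving out the wild type or the knockout LPS library takes out the comparison that went the other way. The genotype effect was then 1.02 for Batf and -0.66 for Atf3. These values are the same in both fits, which rest on the same 3 other treatments and so are 1 result. Whether any treatment effect differed between genotypes was not tested, since each genotype has 1 library per treatment.

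A list of other bZIP genes, which can pair with AP-1 subunits or compete for their sites, gave the members a setting. It also holds Cebpz, which is not a bZIP gene despite its symbol and is included in the counts. Of the 27 listed and tested, 18 were higher and 4 lower with nicotine alone, which is 66.7% and 14.8% against 30.1% and 26% of all genes, and the median log2 change was 0.88 against 0.03. Atf5 (3.56 ± 0.25), Atf4 (3.23), which encodes the effector of the integrated stress response, and Ddit3 (3.17), its partner CHOP, rose most, and Nfe2 (-2.19), an erythroid and megakaryocyte factor, fell most. Atf4 went from 103 and 88.6 FPKM with vehicle to 938 and 882 with nicotine, 287 and 192 with LPS, and 1179 and 1072 with both. With nicotine on top of LPS 48.1% (13) were higher, against 26.9% of all genes, led again by Atf5 (2.79). The share lower, 25.9% (7, with the Batf relative Batf2 lowest at -3.20), was near the 28.6% of all genes. The list's median log2 change with nicotine on top of LPS was 0.54, and 0.49 without the wild type library given both agents. LPS alone raised 48.1% (13), led by Batf2 (3.83), against 32.7% of all genes. It lowered 22.2% (6), with the myeloid factor gene Cebpa (-3.03) lowest, near the 26.4% of all genes. Jdp2, encoding a repressor that dimerizes with JUN, was 2.64 higher with nicotine alone, 1.31 higher with LPS alone, and 0.54 ± 0.22 with nicotine on top of LPS (limma adjusted p = 0.0751).

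**Figure D4:**
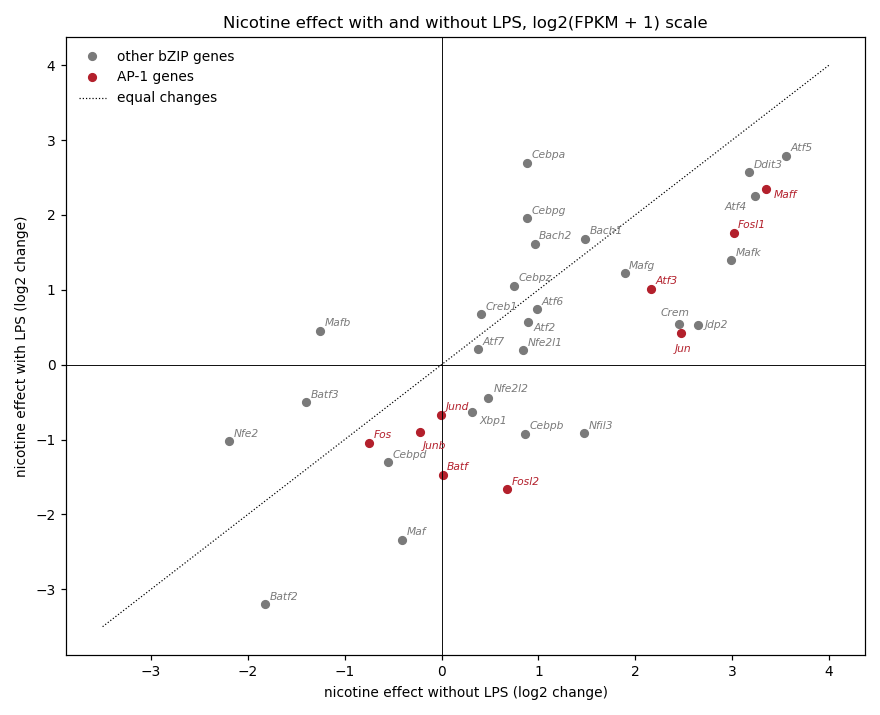
Log2 change with nicotine without LPS (x axis) against that with LPS (y axis) for the 9 tested AP-1 genes (red) and the 27 genes listed as other bZIP genes (grey, with Cebpz, which is not one). The scale is log2(FPKM + 1), with a dotted line of equal changes. All 9 red points lie below the line, with Fosl2 (0.67, -1.67) and Jun (2.47, 0.42) farthest from it.

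Kinases and factors that act upstream of AP-1 moved in both directions, in shares mostly near those of all genes. Of 32 listed, 29 were tested. With LPS alone 41.4% (12) were higher and 20.7% (6) lower, against 32.7% and 26.4% of all genes. The MAP kinase kinase gene Map2k1 (2.63) rose most and the ribosomal S6 kinase gene Rps6ka1 (-1.54) fell most. With nicotine on top of LPS 34.5% (10) were higher, led by Map3k1 (2.11), an activator of the JNK pathway, and 20.7% (6) lower, with the stress kinase gene Map3k5 (-1.70) lowest, against 26.9% and 28.6% of all genes. The median log2 change of the list in that comparison was 0.29, and 0.36 without the wild type library given both agents. With nicotine alone 51.7% (15) were higher and 20.7% (6) lower, against 30.1% and 26% of all genes, from Map2k3, an activator of p38, at the top (1.95) to Rps6ka1 (-2.18). The median changes were 0.27, 0.29 and 0.48 in these 3 comparisons, and between -0.03 and 0.08 for all genes.

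Many genes known as AP-1 targets rose with either agent, whereas adding nicotine to LPS lowered more of them than it raised. Of 30 listed and tested, 23 (76.7%) rose with LPS alone, led by the cytokine gene Il6 (11.62), and 1 (3.33%), the urokinase gene Plau (-1.48), fell, against 32.7% and 26.4% of all genes. Nicotine alone raised 16 (53.3%, against 30.1% of all genes), with the chemokine gene Cxcl2 (4.16) at the top. It lowered 0 by limma's adjusted p, against 26% of all genes, and 1 at an unadjusted p under 0.05. Il1b was lowest (-2.03 ± 1.01, limma adjusted p = 0.129). With nicotine on top of LPS 5 (16.7%) rose, led by Plau (3.48), and 14 (46.7%) fell, with Il1b (-6.15) lowest, against 26.9% and 28.6% of all genes. The median log2 change of the list in that comparison was -0.61, and -0.92 without the wild type library given both agents. The interaction was lower for 15 (50%, against 17.3% of all genes), with the cytokine gene Osm lowest (-5.67 ± 0.41), and its median was -2.01 against -0.11 for all genes. It was higher for 0, by limma's adjusted p and at an unadjusted p under 0.05, against 12.8% of all genes. Without the wild type library given both agents the median interaction of the list was -1.84. The targets are also under NF-kB and other factors, and what AP-1 contributes to their changes was not tested.

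Among 7206 other genes whose mean reached 5 FPKM, those with the highest Pearson correlation with a member over the 8 libraries are given as a description, since the libraries share treatments. Without the wild type library given both agents, r for the same pairs was 0.972 to 0.997 over the 7 others. That is no separate check, since the pairs were chosen on all 8. Junb was most like Pde4b (r = 0.995), Trim56 (0.995) and Il12b (0.991), and Batf most like Ccl22 (0.994), Oas1a (0.987) and Phf11d (0.987). Fosl2 was nearest to Tnpo3 (0.986), Rdx (0.985) and Vps37a (0.983), Jund to Slamf7 (0.990), B3gnt2 (0.988) and Sipa1l1 (0.987), and Fos to Icosl (0.975), Map3k5 (0.968) and Ubxn2a (0.961). Jun was nearest to Arnt (0.988), Hnrnpll (0.970) and Sik1 (0.969), and Atf3 to Wnk1 (0.990), Kdm1a (0.981) and Zfp212 (0.980). Maff was nearest to Ppig (0.994), Gabpb1 (0.994) and Lsg1 (0.989), and Fosl1 to Wdr82 (0.993), Rpl34 (0.991) and Plk2 (0.990). Plk2, a polo-like kinase gene, went from 18.1 and 13.5 FPKM with vehicle to 681 and 448 FPKM with both agents.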

How the data were processed

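The authors deposited 1 table of FPKM values with 8 columns, 1 per library. Tools listed in the submitters' processing notes are Cuffdiff, Cufflinks, HISAT2 and CASAVA 1.8, and the build is mm10 (GRCm38). Which annotation was used and whether libraries were scaled to each other is not given in the sources used here. Per the labels' protocols, poly(A) RNA was made into libraries with TruSeq reagents (RNA Sample Prep Kit v2), which do not mark strand. Columns were matched to samples by genotype and treatment in their names. For 2 repeated symbols the line with the higher mean was kept. Depth is not given in counts. Low values between libraries lay most often at ratios of 0.757 to 1.25 to wild type vehicle, which 32.9% to 41.2% of genes under 0.1 FPKM matched within 0.5%, so 1 fragment was worth similar amounts in all.

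FPKM values are not counts, so limma 3.58.1 in R 4.3.3 was fitted to log2(FPKM + 1), with a pseudocount of 1 and a trend on expression, over 10447 genes whose mean reached 1 FPKM. Genotype and the 4 treatments were terms, leaving 3 residual degrees of freedom, and p-values were Benjamini-Hochberg adjusted over all genes, with 0.05 as the threshold. The fit was run on simulated data with independent errors, in which no treatment effect differed between genotypes. The check there was on the size and sign of the changes, not on false calls. The p-values of the fit reflect no more than how far these libraries differ, which may be technical spread. Any real difference between genotypes in a treatment effect enlarges it. Where leaving out a library leaves a treatment with 1 library, that library is assumed to vary like the others. Alternatives were another pseudocount, other filters, 2 scalings, no trend, a single term and leaving out each library. List counts, list medians and correlations without the wild type library given both agents were added after seeing the data. Other steps used NumPy 2.4.6, pandas 2.3.3 and Matplotlib 3.10.9 in Python 3.11.15. Gene positions came from GENCODE release M21 and promoters from RefSeq, both on GRCm38.

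The members, the gene lists and the tests were chosen with earlier results of these data known. The text names all members, the 3 genes most like each tested member by Pearson correlation (predicted, Rik and small RNA genes left out), and the largest and smallest changes of each list. Atf4, Ddit3, Jdp2 and the values of Plk2 were added after their values were seen.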

Additional observations from a re-analysis of the deposited data

Results flagged for a closer look

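For Fosl2 and Jun the effect of nicotine differed between cells with and without LPS by the test of the difference itself. Fosl2 was higher with nicotine without LPS and lower with nicotine under LPS in both genotypes, and the log2 difference between these effects was -2.34 ± 0.25 (limma adjusted p = 0.00422). Jun rose with nicotine without LPS, to 129 and 76.7 FPKM, and stood at only 35.7 and 42.6 FPKM with both agents, a log2 difference of -2.05 ± 0.43 (limma adjusted p = 0.0166). Each group has 1 library, so no group could be searched for a library far from its replicates.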

How the results depend on the processing

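Of 23 member changes that passed, 14 kept their call under all 15 alternatives and the other 9 lost it under at least 1, as named with each comparison, while none of the 23 changed sign. Over all 45 member changes, 675 alternative values gave 616 with the same direction and side of the threshold, 24 that lost a call, 16 that gained one and 19 that changed sign. Signs turned for Batf with nicotine alone (-0.0518 with quantile scaling and -0.022 with median centring), for the Junb interaction with quantile scaling (0.25) and for the Maff genotype effect with a pseudocount of 0.1 (0.0361). Leaving out each library gave ranges across 0 for nicotine alone in Jund (-0.127 to 0.125) and Batf (-0.22 to 0.241), for the interaction in Fos (-0.625 to 0.032), and for genotype in Junb (-0.0881 to 0.0678), Jund (-0.012 to 0.158) and Maff (-0.305 to 0.162). Members lower with nicotine alone numbered 1, but 0 with no filter or treatment as the only term, 2 with quantile scaling, and 0 to 1 when a library was left out. Members higher with nicotine under LPS numbered 2, and 1 with a pseudocount of 0.1, and members lower 2 to 5 without a library. Leaving out a library gave 1 to 4 members with a lower interaction and 0 to 1 higher and 0 to 1 lower by genotype. Genes called overall fell with a mean of at least 5 FPKM, from 2753 to 1527 lower with LPS, from 2712 to 1481 lower with nicotine alone and from 1332 to 686 with a higher interaction. With treatment as the only term 720 genes had a higher and 868 a lower interaction, against 1332 and 1811. By genotype, 497 were higher and 301 lower, 185 and 86 with no filter, and 11 and 8 with genotype as the only term. Without 1 library, genes lower numbered 1781 to 2712 with LPS and 1629 to 3067 with nicotine alone. Under LPS nicotine gave 1816 to 2793 higher and 1884 to 2779 lower, the interaction 475 to 1629 and 560 to 2077, and genotype 102 to 598 and 53 to 522. The cause of these shifts was not tested. The genotype term compares treatments within a genotype, and the fit with treatment as the only term drops it. No paired analysis by replicate number was possible because each group has 1 library and the labels carry no such numbers. With no counts, no counting interval can be given for low values such as those of Fosb and Fosl1.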
